A study of Mus musculus with 6 samples.

Results

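Voltage-gated sodium channel subunits were measured in hippocampal RNA-Seq libraries of Phf21bΔ4/Δ4 and Phf21b+/+ mice. The members are the 8 rows of the deposited expression matrix that carry the symbols Scn1a, Scn2a, Scn3a, Scn8a, Scn9a, Scn2b, Scn3b, and Scn4b, of 14477 listed genes. All 8 were listed, and all of them were tested, 5 alpha and 3 beta subunit genes.

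These channels open when a neuron is depolarized and carry the inward sodium current of the action potential. Each channel is a single large alpha subunit, which forms the pore, joined by smaller beta subunits that tune its gating and its place in the membrane. Scn2a (Nav1.2) and Scn8a (Nav1.6) encode the main pores of excitatory neurons at the axon initial segment, Scn1a (Nav1.1) serves above all inhibitory interneurons, Scn3a (Nav1.3) is mainly a developmental pore, and Scn9a (Nav1.7) is best known from sensory neurons outside the brain. Scn2b and Scn4b encode beta subunits that bind the pore through a disulfide bond, and Scn3b encodes one that binds it without such a bond.

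The Phf21bΔ4/Δ4 line is a whole-body CRISPR/Cas9 mutant with a deletion in exon 4 of Phf21b, a gene for a chromatin reader with a PHD finger, and the study describes it as a knockdown model. There were 3 libraries per genotype, Phf21bΔ4/Δ4 replicates 2, 3, and 6 and Phf21b+/+ replicates 5, 7, and 8, from untreated animals. The labels give neither the sex nor the age of these animals. By the study's methods the line was kept on a C57BL/6J background, and its animals were littermates of both sexes in young adulthood.

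Each library held 20495605 to 24881257 reads on the listed genes. Phf21b itself was at 2.15, 3.57, and 3.87 CPM (reads scaled to a library of fixed size) in Phf21bΔ4/Δ4 replicates 2, 3, and 6 and at 6.50, 5.23, and 6.47 CPM in Phf21b+/+ replicates 5, 7, and 8, with no overlap, but it did not pass the test (log2 fold change −0.96, SE 0.26, FDR 0.141 by limma with Benjamini-Hochberg adjustment). Reads from outside the deleted stretch count toward this value. The study reports lower Phf21b transcript and PHF21B protein in the hippocampus of this line, by qRT-PCR, immunoblot, and immunostaining. Markers of neurons, glia, CA1, and dentate granule cells were all detected, as the hippocampus label asks, but several lists differed in level between the libraries. Summed over 17 medial habenula markers, a region that lies next to the hippocampus, the level was 46.2 to 74.5 CPM in Phf21bΔ4/Δ4 and 354 to 461 CPM in Phf21b+/+ libraries, and 15 of the 17 passed the test as lower. Chat, Slc18a3, Pou4f1, and Irx2, defining markers among them, had at most 3 reads in every Phf21bΔ4/Δ4 library. The 7 CA1 markers summed to 882 to 985 CPM in Phf21bΔ4/Δ4 and 374 to 415 CPM in Phf21b+/+, and 2 of the 7, Fibcd1 and Mpped1, passed as higher. Phf21bΔ4/Δ4 replicate 6 stood apart from the other 2 of its genotype in the 8 dentate granule cell markers, which summed to 658 CPM there against 208 and 213 CPM, near the 694 to 814 CPM of Phf21b+/+. In Phf21b+/+ replicate 7 the 6 choroid plexus markers summed to 15596 CPM, against 22.4 and 960 CPM in the other Phf21b+/+ and 22.7 to 80.0 CPM in the Phf21bΔ4/Δ4 libraries. Each member is therefore also given without Phf21bΔ4/Δ4 replicate 6 and without that library and Phf21b+/+ replicate 7 together. In bulk tissue, fewer cells of a type and less RNA per cell cannot be told apart.

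Scn9a was the only member that differed between the genotypes past both thresholds, 0.1 for the FDR and 1.3 for the fold change. It fell 3.68-fold in Phf21bΔ4/Δ4. The study's own edgeR test of its hippocampal RNA-Seq also lists Scn9a among its differentially expressed genes, as lower. Of all 14477 genes, 0.663% passed as lower and 0.553% as higher, 1.22% in all. The other 7 members were not called. The genotypes did not overlap in 5 members, the called Scn9a among them. All 3 Phf21bΔ4/Δ4 libraries lay above all 3 Phf21b+/+ libraries for Scn2a, Scn8a, and Scn2b and below them for Scn3a and Scn9a. Non-overlap upward was seen in 15.0% and downward in 16.0% of all genes. The median log2 fold change was 0.22 over the 8 members and −0.019 over all genes.

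**Figure D1:**
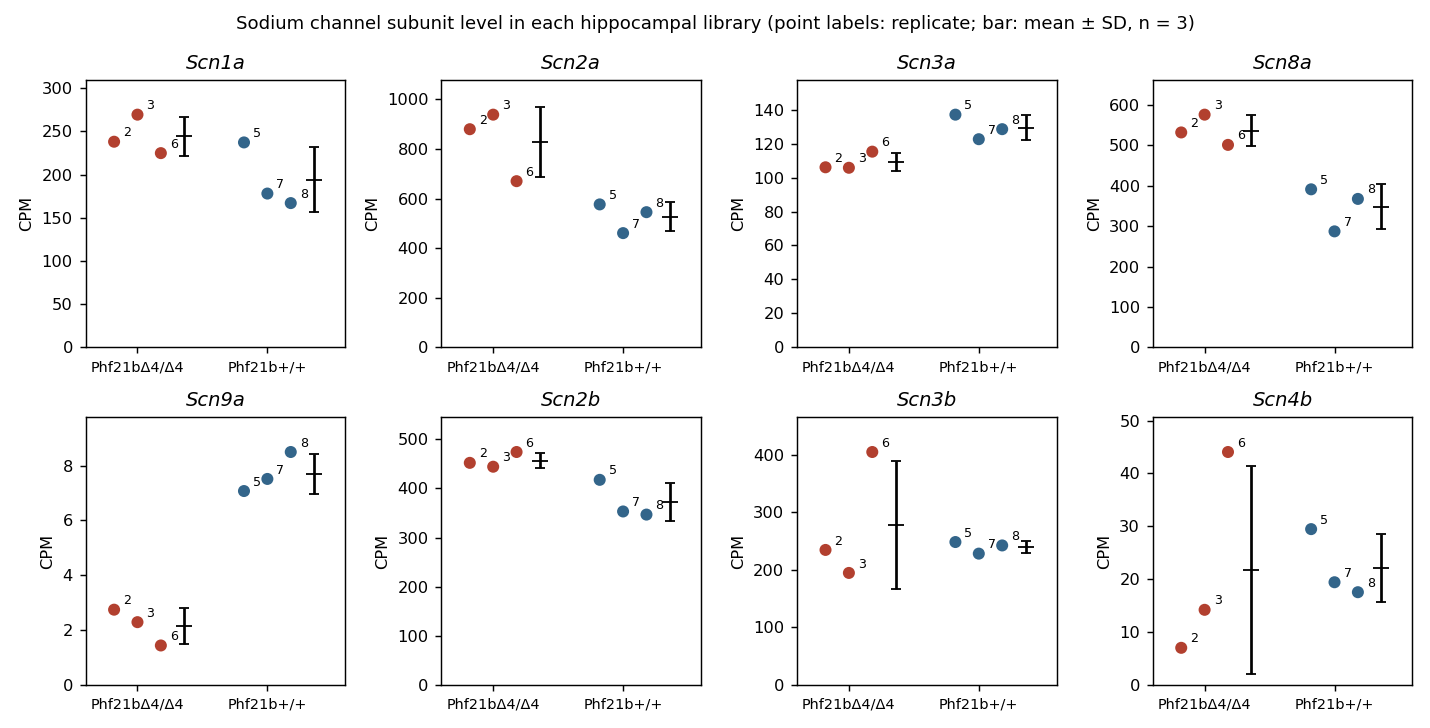
Level of each subunit gene in CPM (vertical axes, from 0) in every library, with Phf21bΔ4/Δ4 in red, Phf21b+/+ in blue, replicate numbers beside the points and black bars for the mean ± SD of 3 libraries. Scn9a separates the genotypes most widely, at 1.44 to 2.74 against 7.07 to 8.49 CPM, while Phf21bΔ4/Δ4 replicate 6 is the highest library for Scn3b and Scn4b, at 405 and 44.1 CPM.

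The promoters of Scn9a, the called member, and of Scn2a and Scn8a, the 2 members with the largest positive differences, are shown here. PHF21B is a chromatin reader and CREB binds the CRE motif, and the study examined both. The sequences are the 250 bases before the RefSeq start site on GRCm38.p6, written 5′ to 3′ on the strand of the gene, with every CpG dinucleotide in capitals. Scn9a lies on the minus strand (chr2:66634963-66635212), Scn2a on the plus strand (chr2:65620519-65620768, the upstream of its 2 listed starts), and Scn8a on the plus strand (chr15:100870395-100870644, likewise the upstream of 2).
Scn9a: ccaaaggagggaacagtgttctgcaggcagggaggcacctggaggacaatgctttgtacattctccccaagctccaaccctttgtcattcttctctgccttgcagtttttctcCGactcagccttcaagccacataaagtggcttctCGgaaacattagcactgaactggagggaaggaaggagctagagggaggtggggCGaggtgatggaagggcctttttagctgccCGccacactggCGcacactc
Scn2a: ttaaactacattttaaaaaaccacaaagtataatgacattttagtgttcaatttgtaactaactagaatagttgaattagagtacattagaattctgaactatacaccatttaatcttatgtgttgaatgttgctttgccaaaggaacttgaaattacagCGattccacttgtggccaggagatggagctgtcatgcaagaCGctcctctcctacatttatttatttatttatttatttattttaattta
Scn8a: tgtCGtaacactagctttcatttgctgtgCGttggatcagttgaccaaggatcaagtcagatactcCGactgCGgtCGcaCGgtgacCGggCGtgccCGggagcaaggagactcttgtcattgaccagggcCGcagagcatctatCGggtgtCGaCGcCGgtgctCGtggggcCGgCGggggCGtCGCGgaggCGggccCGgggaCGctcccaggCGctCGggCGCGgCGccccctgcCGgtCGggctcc
These 3 windows differ widely. The Scn8a window held 30 CpG dinucleotides and a GC content of 68.0%, and 94.1% of the 32851 listed promoter windows of the same length held fewer. The Scn2a window held 2 CpG dinucleotides at 29.6% GC, and that of Scn9a held 5 at 54.4% GC, against a median of 6 and 52.4% over all windows. At the second listed starts of Scn2a and Scn8a the windows each held 9 CpG dinucleotides at 53.2% GC. In all there were 8 member windows, which belonged to 6 member genes. The CRE half-site, TGACG on either strand, was in none of the 8 member windows and in 17.8% of all windows, and the full CRE (TGACGTCA), which contains it, was in 1.55% of all windows. No match says only that these letters were not in these windows.

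Scn2a encodes the pore most abundant in these libraries among the alpha subunits. Its level was 880, 939, and 670 CPM in Phf21bΔ4/Δ4 replicates 2, 3, and 6 and 577, 461, and 545 CPM in Phf21b+/+ replicates 5, 7, and 8. The genotypes did not overlap, and Phf21bΔ4/Δ4 replicate 6 was the nearest to Phf21b+/+. The means were 830 ± 141 and 528 ± 59.9 CPM (SD, n = 3), a log2 fold change of 0.64 (SE 0.16, 95% interval 0.27 to 1.02), which missed the threshold (FDR 0.133, limma). Without Phf21bΔ4/Δ4 replicate 6 the difference was 0.79 and passed (FDR 0.024, limma), and without that library and Phf21b+/+ replicate 7 together it was 0.70 and passed (FDR 0.028, limma). Quantile normalization reduced it to 0.40, without a call.

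Scn8a, the main pore at nodes of Ranvier, gave 531, 575, and 500 CPM in Phf21bΔ4/Δ4 replicates 2, 3, and 6. The Phf21b+/+ replicates 5, 7, and 8 gave 391, 287, and 367 CPM. Again no Phf21bΔ4/Δ4 library was as low as any Phf21b+/+ library. The means of 536 ± 37.5 and 348 ± 54.4 CPM (SD, n = 3) gave a log2 fold change of 0.63 (SE 0.13, 95% interval 0.31 to 0.95), with an FDR of 0.121 in limma. Without Phf21bΔ4/Δ4 replicate 6 it was 0.68 and passed (FDR 0.043, limma), and without both libraries that stood apart it was 0.55 and passed (FDR 0.039, limma). Under quantile normalization it was 0.38 and did not pass.

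Pan-neuronal markers moved with both genes. The 10 markers, which include Rbfox3, Snap25, and Map2, summed to 8172 to 9617 CPM in Phf21bΔ4/Δ4 and 6090 to 7786 CPM in Phf21b+/+, with no overlap, and none of the 10 passed the test, 9 of them having a positive log2 fold change. Scn2a was 9.15%, 9.98%, and 8.20% of that sum in Phf21bΔ4/Δ4 replicates 2, 3, and 6 and 7.41%, 7.57%, and 7.57% in Phf21b+/+ replicates 5, 7, and 8. The genotypes still did not overlap on this scale, at a log2 difference of 0.27. For Scn8a the log2 difference relative to these markers was 0.26, also without overlap. Both have an exact permutation p of 0.1, the smallest that 3 against 3 libraries can give. The outcome differed with the marker list. Relative to the GABAergic interneuron markers the log2 differences were 0.02 for Scn2a and 0.01 for Scn8a, with overlap (exact permutation p = 0.8 and 0.9). Relative to the CA1 markers both genes were lower in Phf21bΔ4/Δ4 without overlap, at −0.61 and −0.63 (exact permutation p = 0.1 for each). The part of cell content in either result was not tested further.

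Scn1a was at 238, 269, and 225 CPM in Phf21bΔ4/Δ4 replicates 2, 3, and 6 and 237, 178, and 167 CPM in Phf21b+/+ replicates 5, 7, and 8. Phf21b+/+ replicate 5 lay within the Phf21bΔ4/Δ4 range, so the genotypes overlapped. The log2 fold change was 0.34 (SE 0.15, 95% interval −0.01 to 0.70, FDR 0.218, limma). The study likewise found no detectable difference in Scn1a transcript by qRT-PCR on more animals per genotype. The 10 markers of GABAergic interneurons, the cells with which Scn1a is most associated, summed to 1074 to 1279 CPM in Phf21bΔ4/Δ4 and 725 to 843 CPM in Phf21b+/+, and 1 of them, Gad2, an enzyme of GABA synthesis, passed as higher (log2 fold change 0.62, FDR 0.083, limma). Relative to the pan-neuronal markers the difference of Scn1a was −0.03 (exact permutation p = 0.9). Relative to the interneuron markers it was −0.28, and relative to the CA1 markers −0.92, both without overlap (exact permutation p = 0.1 for each). Without Phf21bΔ4/Δ4 replicate 6 the log2 fold change was 0.40 (FDR 0.151, limma), and without both libraries that stood apart it was 0.35 (FDR 0.266, limma). Quantile normalization gave 0.19 on the deposited scale.

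Scn3a differed in the other direction. It was at 106, 106, and 115 CPM in Phf21bΔ4/Δ4 replicates 2, 3, and 6 and at 137, 123, and 128 CPM in Phf21b+/+ replicates 5, 7, and 8. The groups did not overlap, and the spread within each was small, at 109 ± 5.40 and 129 ± 7.26 CPM (SD, n = 3). The log2 fold change of −0.25 (SE 0.08, 95% interval −0.43 to −0.06) was not called (FDR 0.155, limma). Leaving out Phf21bΔ4/Δ4 replicate 6 took the FDR to 0.063 in limma, at a log2 fold change of −0.29 that was below the fold threshold, and leaving out both libraries that stood apart gave −0.33 (FDR 0.068, limma), likewise below it. Relative to the pan-neuronal markers Scn3a was lower in Phf21bΔ4/Δ4 by 0.62 on the log2 scale, with no overlap (exact permutation p = 0.1).

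Scn9a was the least abundant pore. Its reads numbered 65, 48, and 33 in Phf21bΔ4/Δ4 replicates 2, 3, and 6. The count was 149 in Phf21b+/+ replicate 5, 178 in replicate 7, and 189 in replicate 8. In CPM these were 2.74, 2.29, and 1.44 against 7.07, 7.51, and 8.49. Every Phf21bΔ4/Δ4 value was below every Phf21b+/+ value. The means were 2.15 ± 0.66 and 7.69 ± 0.73 CPM (SD, n = 3), a log2 fold change of −1.88 (SE 0.26, 95% interval −2.51 to −1.26, FDR 0.065, limma). The size of the difference changed little when any 1 library was left out, from −2.08 to −1.61, but the call did not hold in 5 of the 6 such fits. In those 5 fits 0.0622% to 0.311% of all genes were called, against 1.22% with all libraries and 19.5% without Phf21bΔ4/Δ4 replicate 6. The FDR of Scn9a was 0.117 without Phf21bΔ4/Δ4 replicate 2 and 0.120 without replicate 3. It was 0.113, 0.242, and 0.261 without Phf21b+/+ replicates 5, 7, and 8, and 0.012 without Phf21bΔ4/Δ4 replicate 6. Without both libraries that stood apart, the FDR was 0.027 at a log2 fold change of −1.63. All FDRs are from limma.

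Summed markers of the medial habenula and of the thalamus were lower in Phf21bΔ4/Δ4, as was Scn9a. The summed level of the habenula markers was 74.5, 55.5, and 46.2 CPM in Phf21bΔ4/Δ4 replicates 2, 3, and 6 and 354, 397, and 461 CPM in Phf21b+/+ replicates 5, 7, and 8. Within each genotype this was the order of Scn9a, but in Phf21bΔ4/Δ4 the order came from Calb2. That marker, also on the thalamus list, was at 52.8, 27.8, and 14.8 CPM in Phf21bΔ4/Δ4 replicates 2, 3, and 6. Lrrc55, the next highest there, ran the other way, at 9.91, 18.9, and 23.9 CPM. As a share of the summed habenula markers Scn9a was higher in Phf21bΔ4/Δ4, at 3.68%, 4.12%, and 3.10% against 2.0%, 1.89%, and 1.84%. Calb2 was a large part of the Phf21bΔ4/Δ4 sums behind these shares. The 11 listed of 12 thalamus markers summed to 161, 240, and 216 CPM in Phf21bΔ4/Δ4 and 682, 709, and 461 CPM in Phf21b+/+, and 2 of the 11, Tcf7l2 (log2 fold change −3.12, FDR 0.024) and Zic1 (−4.49, FDR 0.079), passed as lower in limma. Within each genotype the thalamus sum did not follow the order of Scn9a. Relative to that sum the log2 difference of Scn9a was −0.30, with overlap (exact permutation p = 0.5). The outcome differed with the marker list. Relative to the pan-neuronal markers it was −2.25 and relative to the CA1 markers −3.14, both without overlap (exact permutation p = 0.1 for each). Relative to the dentate granule cell markers it was −0.61, with overlap (exact permutation p = 0.8). Markers of peripheral sensory neurons were low throughout. The 4 listed of 8 summed to 2.5 to 4.2 CPM in Phf21bΔ4/Δ4 and 5.0 to 6.4 CPM in Phf21b+/+, and Scn10a and Scn11a, the pores that define pain-sensing neurons, are not among the listed genes. How much of the Scn9a difference belongs to habenular or thalamic tissue in the samples was not tested. By the correlation of log2 CPM over the 6 libraries, the 5 genes most like Scn9a of 12965 compared were Syt6 (r = 0.996), 2310009A05Rik (r = 0.994), Fzd1 (r = 0.992), Tac2 (r = 0.991), and Rars2 (r = 0.991), as a description only. Tac2, which encodes neurokinin B, is itself one of the habenula markers, and its mean was 2.76 CPM in Phf21bΔ4/Δ4 and 31.4 CPM in Phf21b+/+.

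**Figure D2:**
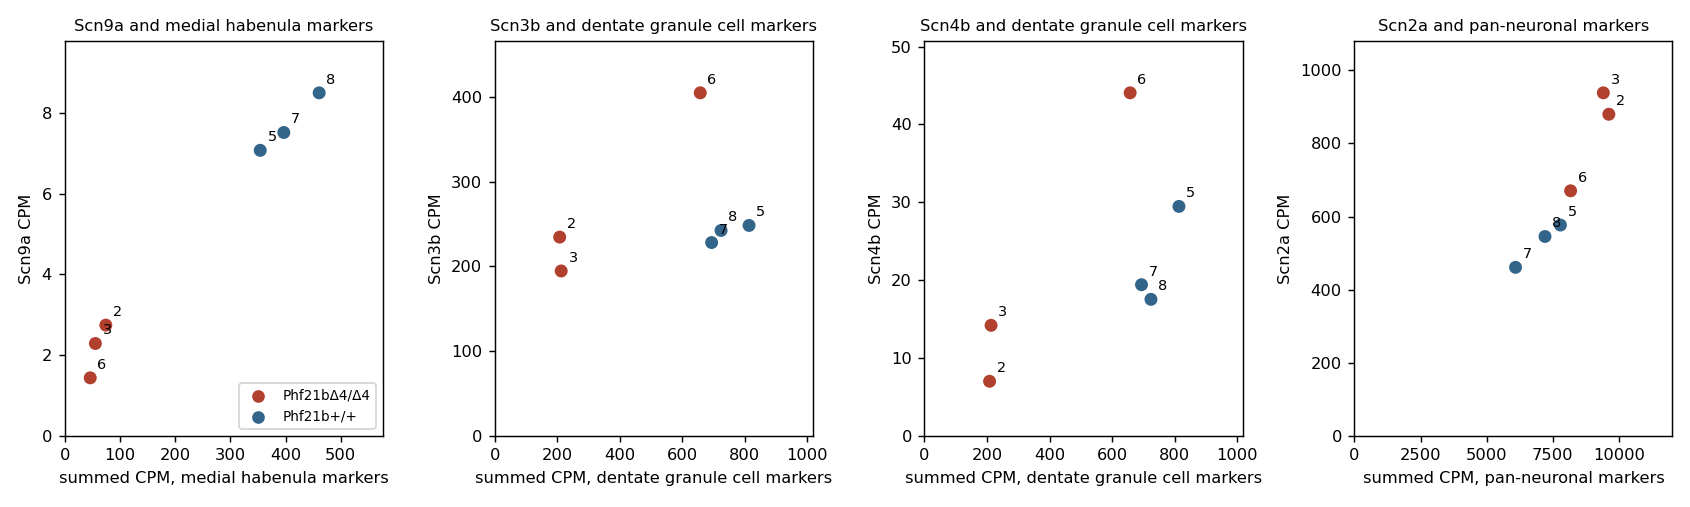
CPM of 4 members (vertical axes) against the summed CPM of a marker list in the same library (horizontal axes), with Phf21bΔ4/Δ4 in red, Phf21b+/+ in blue and replicate numbers beside the points. Scn9a and the habenula markers are low together in Phf21bΔ4/Δ4 (46.2 to 74.5 CPM of markers) and high together in Phf21b+/+ (354 to 461 CPM), and replicate 6 of Phf21bΔ4/Δ4 is apart from replicates 2 and 3 in the dentate granule cell panels.

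Among the beta subunits, Scn2b was at 452, 444, and 474 CPM in Phf21bΔ4/Δ4 replicates 2, 3, and 6 and 417, 353, and 347 CPM in Phf21b+/+ replicates 5, 7, and 8. The genotypes did not overlap, though Phf21b+/+ replicate 5 came close. The log2 fold change was 0.30 (SE 0.10, 95% interval 0.07 to 0.53, FDR 0.165, limma). It was 0.05 under quantile normalization, where the genotypes overlapped, and −0.07 relative to the pan-neuronal markers (exact permutation p = 0.6). Without Phf21bΔ4/Δ4 replicate 6 it was 0.27 (FDR 0.139, limma), and without both libraries that stood apart it was 0.24 (FDR 0.233, limma).

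Scn3b and Scn4b varied widely within Phf21bΔ4/Δ4. Scn3b was at 235, 195, and 405 CPM in Phf21bΔ4/Δ4 replicates 2, 3, and 6 and 248, 228, and 242 CPM in Phf21b+/+ replicates 5, 7, and 8. Replicates 2 and 3 of Phf21bΔ4/Δ4 were near or below Phf21b+/+, and replicate 6 was above every other library. The log2 fold change was 0.14 (SE 0.25, 95% interval −0.46 to 0.75, FDR 0.743, limma) with that library and −0.16 without it (FDR 0.304, limma). Without both libraries that stood apart it was −0.20 (FDR 0.289, limma). It was also below 0 under quantile normalization, at −0.03.

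Scn4b, whose product is known for the resurgent current of fast-firing neurons, was at 7.0, 14.2, and 44.1 CPM in Phf21bΔ4/Δ4 replicates 2, 3, and 6. It was at 29.5, 19.4, and 17.5 CPM in Phf21b+/+ replicates 5, 7, and 8. The 3 Phf21bΔ4/Δ4 values thus spanned the whole Phf21b+/+ range. The log2 fold change was −0.40 (SE 0.63, 95% interval −1.89 to 1.09, FDR 0.707, limma). It was −1.11 and passed without Phf21bΔ4/Δ4 replicate 6 (FDR 0.092, limma), and 0.21 without Phf21bΔ4/Δ4 replicate 2 (FDR 0.831, limma). Without replicate 6 and Phf21b+/+ replicate 7 together it was −1.19 and did not pass (FDR 0.136, limma).

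Phf21bΔ4/Δ4 replicate 6, the highest library for both genes, was also the one of its genotype with high dentate granule cell markers. Prox1, the transcription factor that defines granule cells, was at 50.4, 44.4, and 110 CPM in Phf21bΔ4/Δ4 replicates 2, 3, and 6 and 149, 115, and 134 CPM in Phf21b+/+ replicates 5, 7, and 8. None of the 8 granule cell markers passed the test with all libraries, and all 8 had a negative log2 fold change. Scn3b in Phf21bΔ4/Δ4 replicate 6 exceeded every Phf21b+/+ library, while the summed granule cell markers there did not. The part of granule cells in the Scn3b and Scn4b values was not tested. Without Phf21bΔ4/Δ4 replicate 6 there were 4 calls among the 8 members in place of 1, Scn2a and Scn8a higher and Scn4b and Scn9a lower, while 10.3% of all genes were then called higher and 9.29% lower. Without both libraries that stood apart there were 3, Scn2a and Scn8a higher and Scn9a lower, while 7.72% of all genes were then called higher and 6.55% lower.

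**Figure D3:**
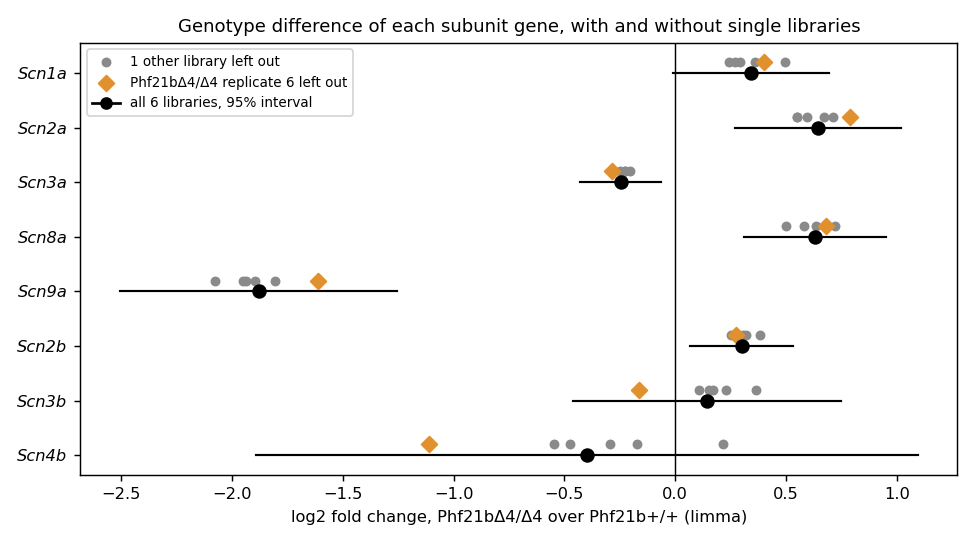
Log2 fold change of Phf21bΔ4/Δ4 over Phf21b+/+ for each member (horizontal axis), with black points and 95% intervals from limma on all 6 libraries, orange diamonds for the fit without Phf21bΔ4/Δ4 replicate 6 and grey points for the fits without 1 other library. Scn3b crosses 0 when replicate 6 is left out (0.14 to −0.16) and Scn4b moves from −0.40 to −1.11, while the 6 fits of Scn9a stay between −2.08 and −1.61.

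Levels were compared between genes as CPM per kilobase of annotated exon. In Phf21b+/+ hippocampus the order from the highest was Scn2b (80.0 ± 8.41), Scn3b (43.9 ± 1.90), Scn2a (41.4 ± 4.70), Scn8a (22.1 ± 3.45), Scn1a (17.4 ± 3.39), Scn3a (10.4 ± 0.58), Scn4b (4.44 ± 1.29), and Scn9a (0.60 ± 0.06 CPM per kilobase, SD, n = 3). The libraries of Scn3b and Scn2a overlapped, as did those of Scn8a and Scn1a, and all other neighbours in this order were separate. In Phf21bΔ4/Δ4 the order was the same but for Scn2a (65.2 ± 11.1), which came before Scn3b (50.9 ± 20.5 CPM per kilobase, SD, n = 3), a pair whose libraries overlapped in both genotypes. The libraries of Scn3b and Scn8a and those of Scn3a and Scn4b overlapped in Phf21bΔ4/Δ4 as well.

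The makeup of the alpha subunit pool followed from these levels. Scn2a made up 52.0%, 51.5%, and 46.2% of the summed alpha-subunit level per length in Phf21bΔ4/Δ4 replicates 2, 3, and 6 and 44.0%, 44.8%, and 46.5% in Phf21b+/+ replicates 5, 7, and 8, with overlap at replicate 6. Scn3a took 6.40%, 5.93%, and 8.12% in Phf21bΔ4/Δ4 against 10.7%, 12.2%, and 11.2% in Phf21b+/+. Its share was lower in every Phf21bΔ4/Δ4 library. The share of Scn8a was higher in each, at 25.4%, 25.5%, and 27.9% against 24.1%, 22.5%, and 25.3%, although the nearest values almost touched. Scn9a was below 1% of the pool throughout, at 0.13% ± 0.03 against 0.66% ± 0.11 (SD, n = 3). Over the 9 ratios compared, the adjusted exact permutation p was 0.30 for Scn3a, Scn8a, and Scn9a and 0.45 or more for the rest, and the raw p of these 3 was 0.1, the smallest possible.

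The beta pool was mostly Scn2b. It took 68.6%, 71.3%, and 55.1% in Phf21bΔ4/Δ4 replicates 2, 3, and 6 and 63.6%, 62.4%, and 60.8% in Phf21b+/+ replicates 5, 7, and 8, so that replicate 6 was the lowest of all libraries. The ratio of the summed alpha to the summed beta level per length was 0.94, 1.07, and 0.62 in Phf21bΔ4/Δ4 and 0.73, 0.67, and 0.75 in Phf21b+/+. The genotypes overlapped in this ratio (adjusted exact permutation p = 0.60), again through replicate 6. Without it the difference in the ratio was 0.29 in place of 0.16.

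**Figure D4:**
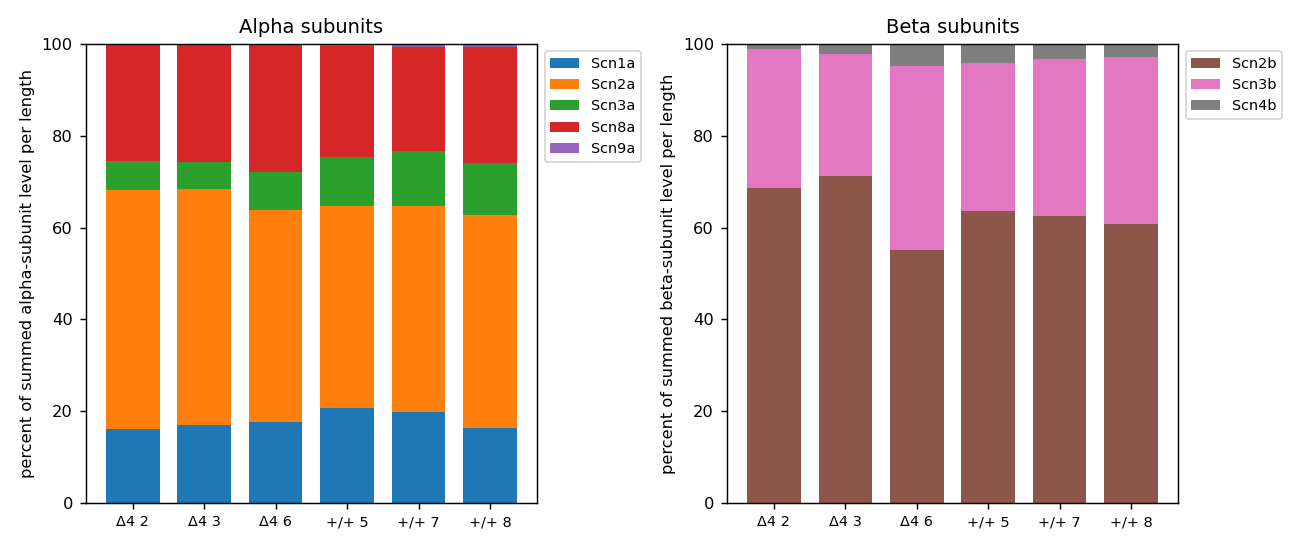
Share of each alpha subunit gene (left) and each beta subunit gene (right) in the summed level per length of its group, in percent, with 1 stacked bar per library (Δ4 for Phf21bΔ4/Δ4, +/+ for Phf21b+/+, followed by the replicate number). The shares of Scn3a and Scn9a are lower in all 3 Phf21bΔ4/Δ4 libraries than in any Phf21b+/+ library, that of Scn3a at 5.93% to 8.12%, and the beta pool of Phf21bΔ4/Δ4 replicate 6 differs from that of replicates 2 and 3.

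Scn3a, Scn2a, Scn1a, and Scn9a lie in 1 cluster on mouse chromosome 2 (GRCm38, GENCODE release 21). Scn3a spans 65457118 to 65567627 on the minus strand and Scn2a 65620771 to 65767447 on the plus strand, 53144 bp apart and facing away from each other. Scn1a spans 66270778 to 66440840 and Scn9a 66480080 to 66634962, both on the minus strand and 39240 bp apart. Neighbours in the cluster thus differed in direction: Scn2a had a positive and Scn3a a negative log2 fold change, and likewise Scn1a and Scn9a. The nearest listed genes outside the members on each side were Slc38a11 (log2 fold change 1.08, SE 0.37, FDR 0.168, limma) and Scn7a (−0.33, SE 0.56, FDR 0.727, limma), and none of the 8 listed genes within 500 kb of this cluster was called.

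Scn2b (45117782 to 45130070) and Scn4b (45138395 to 45154152) lie 8325 bp apart on chromosome 9, both on the plus strand, and Scn3b lies on the same chromosome at 40269217 to 40291618. None of the 16 listed neighbours of these 3 genes was called, Mpzl3 and Il10ra being the nearest to the pair and Gramd1b (0.52, SE 0.10, FDR 0.111, limma) and Zfp202 the nearest to Scn3b. Scn8a is on chromosome 15, at 100869858 to 101045938 on the plus strand, between Slc4a8 (0.74, SE 0.18, FDR 0.133, limma) and Fignl2 (−0.42, SE 0.29, FDR 0.379, limma). Of its 19 listed neighbours within 500 kb, 2 were called, both higher. Nr4a1, an immediate early gene that rises with neuronal activity, had a log2 fold change of 0.76 (FDR 0.046, limma) and Csrnp2 one of 0.51 (FDR 0.081, limma).

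Only a small part of the transcript sequence was identical between genes of the family over 75 bases. Of all 75-base words in the annotated transcripts of Scn3a, 3.85% also occurred in another sodium channel gene, with 2.80% for Scn2a, 2.66% for Scn9a, 1.88% for Scn1a, and none for Scn8a and the 3 beta subunit genes. These percentages count words and not reads. How many Scn9a reads could come from a more abundant gene was not tested. Gm13629, annotated antisense to Scn9a, was the only listed gene that overlapped a member. Its mean was 1.89 CPM in Phf21bΔ4/Δ4 and 1.39 CPM in Phf21b+/+ (log2 fold change 0.40, SE 0.47, FDR 0.606, limma). The strand setting of the counting is not given in the sources used here, so reads of Scn9a and Gm13629 may not be fully separated.

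The other genes of the channel complex were taken from 6 lists with 48 listed genes, and 0 of the 48 passed in limma, while 15 had an unadjusted p under 0.05 with a positive and 2 with a negative log2 fold change. No listed partner was called with voom on the recovered reads either. Without Phf21bΔ4/Δ4 replicate 6, 13 were called higher and 2 lower, while 10.3% of all genes were then called higher and 9.29% lower. With all libraries, the shares of all genes with an unadjusted p under 0.05 in limma were 11.6% (1685 genes) higher and 12% (1736 genes) lower. Of 7 other sodium channel genes, 4 were listed and none was called. The sodium leak channel Nalcn gave 0.19 and the sodium-sensing Scn7a −0.33.

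All 11 listed partners at the axon initial segment and node had a positive log2 fold change, with a median of 0.45, and 8 of them had an unadjusted p under 0.05. Among those with the lowest p were Kcnq3, a potassium channel subunit of the M-current, the adhesion molecule Nfasc, and the microtubule organizer Trim46. Nfasc was at 277, 320, and 230 CPM in Phf21bΔ4/Δ4 replicates 2, 3, and 6 and 178, 184, and 198 CPM in Phf21b+/+ replicates 5, 7, and 8. Those groups were separate, at a log2 fold change of 0.55 (SE 0.13, FDR 0.133, limma). Kcnq3 gave 0.63 (FDR 0.134) and Trim46 0.30 (FDR 0.165), both in limma and both without overlap. The list summed to 5651 to 6657 CPM in Phf21bΔ4/Δ4 and 4252 to 5266 CPM in Phf21b+/+, in which the pan-neuronal markers also differed.

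The 4 intracellular fibroblast growth factors, which bind the tail of the pore and shift its inactivation, had a median log2 fold change of 0.25. Fgf11 was at 40.0, 38.7, and 18.8 CPM in Phf21bΔ4/Δ4 replicates 2, 3, and 6 and 16.0, 9.62, and 13.8 CPM in Phf21b+/+ replicates 5, 7, and 8. Replicate 6 lay just above Phf21b+/+, and the log2 fold change was 1.26 (SE 0.33, FDR 0.140, limma). Fgf12, Fgf14, and Fgf13 gave 0.37, 0.13, and 0.11, with overlapping groups.

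Of the 14 trafficking and modifying partners, 11 had a positive log2 fold change, with a median of 0.08. Gpd1l, an enzyme-like regulator of channel trafficking, gave 0.41 (FDR 0.125, limma), and Bace1, the protease that cleaves beta subunits, gave 0.49 (FDR 0.135, limma), both without overlap. Dpysl2 gave 0.44 and Rangrf −0.25. The 6 subunits of the sodium pump, which restores the gradient that the channels spend, had a median of 0.11. Atp1b1, a beta subunit of the pump, was at 1941, 1843, and 1529 CPM in Phf21bΔ4/Δ4 replicates 2, 3, and 6 and 1354, 1299, and 1208 CPM in Phf21b+/+ replicates 5, 7, and 8. Its groups did not overlap (log2 fold change 0.46, SE 0.13, FDR 0.150, limma). Atp1b3 gave −0.35.

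REST and its corepressors, a complex that silences neuronal genes including sodium channel genes outside neurons, had a median log2 fold change of −0.11 over 9 genes. Phf21a, the paralog of Phf21b in that complex, was at 45.2, 52.1, and 59.5 CPM in Phf21bΔ4/Δ4 replicates 2, 3, and 6 and 67.5, 67.6, and 80.8 CPM in Phf21b+/+ replicates 5, 7, and 8. It did not overlap between the genotypes, at −0.47 (SE 0.13, FDR 0.142, limma), and was not called. In qRT-PCR on more animals per genotype, the study found no detectable difference in Phf21a or Kdm1a transcripts. Hdac1 was at −0.37 (FDR 0.142, limma), also without overlap. Rest was at −0.37 (FDR 0.341, limma) and Rcor2 at −0.46 (FDR 0.346, limma), both with overlap.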

How the data were processed

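Hippocampal RNA was purified with RNeasy columns, made into ribosome-depleted TruSeq total RNA libraries, and sequenced by the authors. Reads were trimmed with Trimmomatic 0.39, aligned to GRCm38 with STAR 2.7.3a, and counted with featureCounts of Subread 1.6.4, per the study's methods and the submitters' processing notes. The authors filtered genes with low counts, scaled the data with edgeR, and deposited log2 CPM values, so no count model was the main test here. Low values rose in whole steps, and the reads recovered from them (100% whole within 0.1 reads) gave the depth and CPM used here. The mean prior count was 0.1 reads, and fold changes of low genes are understated on that log2 scale. Groups came from the sample labels, every column of values matched 1 sample, and the genotypes shared no replicate number. Nothing in the labels gives a batch, and the p-values measure the spread between these 6 samples.

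All 14477 genes were fitted with limma 3.58.1 (lmFit, eBayes with a trend) in R 4.3.3, with no covariate. A gene was called at a Benjamini-Hochberg FDR under 0.1 and a fold change above 1.3, as in the study (the authors' own test was that of edgeR). Exact permutation tests were two-sided over the 6 libraries (SciPy 1.17.1). Exon lengths and coordinates came from GENCODE release 21 (98.7% of symbols matched), whereas the authors used a later release of the same build, and GC content came from transcripts. Promoter windows came from RefSeq. The fitting step was tested on simulated data.

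All members were named in every library. From each partner list the called genes and up to 4 others with the lowest p were named (some genes this rule names are not reported here), and of the genes within 500 kb of a member the called ones and the nearest on each side. For each called member the 5 genes with the highest correlation were named among those whose mean log2 CPM reached 1. The members and lists were chosen with earlier results of these data known. Alternatives were other eBayes settings, library weights, filters, pseudocounts, normalizations, thresholds, and leaving out each library, and 2 more were added after the data were seen: leaving out both libraries that stood apart, and values relative to pan-neuronal markers.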

Additional observations from a re-analysis of the deposited data

How the results depend on the processing

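The number of members called was 1 with all libraries and ranged from 0 to 4 when each library was left out in turn, with 4 only without Phf21bΔ4/Δ4 replicate 6. The number was 0 in the other such fits, where 0.0622% to 0.311% of all genes were called, against 19.5% without Phf21bΔ4/Δ4 replicate 6. It was 4 when libraries were weighted by arrayWeights, where 24.5% of all genes were called, 0 at an FDR under 0.05, and, in a choice made after seeing the data, 3 without both libraries that stood apart. The count of members without overlap was 5, or 4 to 5 under the 4 other scalings. It was 8 without both libraries that stood apart, where 2 against 2 libraries overlap less easily. The share of all genes without overlap was not counted in that setting, so the 8 cannot be set against it. Of the 48 partner genes, 13 were called higher and 2 lower with library weights, and as many without Phf21bΔ4/Δ4 replicate 6. In the latter fit 10.3% of all genes were called higher and 9.29% lower. Under every other alternative run on them in limma, 0 of the 48 were called, while 0.0622% to 1.37% of all genes were. Scn2a, Scn3a, Scn8a, and Scn9a kept the sign of their log2 fold change under the 16 of 22 alternatives that can alter it. Scn3b was below 0 with library weights (−0.00396), quantile normalization (−0.034), without both libraries that stood apart (−0.20), and relative to pan-neuronal markers (−0.23), and ranged from −0.16 to 0.36 with 1 library left out. Relative to pan-neuronal markers Scn1a was at −0.0277 and Scn2b at −0.072. Scn4b ranged from −1.11 to 0.21 with 1 library left out. Leaving out 1 library moved the genotype difference in beta share of Scn2b between −0.406 and 7.67 percentage points, of Scn3b between −5.81 and 0.942, and of Scn4b between −1.86 and 0.0314. The cause of these changes was not tested. No paired analysis was possible because the genotypes share no replicate number. With 33 to 189 reads, Scn9a had the least depth of the members.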
